A study of Gallus gallus with 6 samples.

Results

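Claudin genes, the occludin gene OCLN and TJP1, which encodes the scaffold protein ZO-1, were described in the jejunal mucosa of heat-stressed breeder hens. The genes were chosen by symbol from a list of 9 tight junction genes. Of these, 8 have a row among the 15656 genes of the deposited table, and CLDN19 was not analysed here. The tested breed was the Leuang Hang Kao breeder hen, labelled heat-adapted, with 3 libraries, and it was set against the SUT breeder hen, labelled heat-sensitive, with 3 libraries. All hens were 28 weeks old and all had been kept at 36 °C for 6 h. RNA of 4 hens was pooled for each library, so that 12 hens entered each group out of 25 housed. Since heat tolerance and breed go together in the labels, these cannot be told apart. No unheated hens were analysed here, so the values hold no response to heat within a breed. The hens are separate between pools, and p-values measure the spread between pools of hens.

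Tight junctions seal the space between neighbouring epithelial cells just below their apical surface. Claudins are small membrane proteins whose outer loops meet those of the next cell. Some of them close the gap, and others line channels that let water or particular ions pass between the cells. Occludin is a membrane protein of the same strands that takes part in their regulation, and ZO-1 ties claudins and occludin to the actin cytoskeleton inside the cell. In the small intestine the choice of claudins sets how leaky the lining is, and heat stress is one of the conditions in which intestinal leakiness is studied. The comparison asked whether the jejunum of the heat-adapted hens held other amounts of these transcripts than the jejunum of heat-sensitive hens under equal heat.

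Levels are FPKM, which is fragments scaled by the authors for gene length and library size, so levels of different genes can be set side by side. The libraries' read counts added up to 10829957 at the lowest and 13070796 at the highest. For 104 genes the count rows were found through the heat-sensitive libraries. In these genes the counts of heat-adapted columns were not the FPKM values up to a factor. From log2 read count over FPKM, each gene's mean over the heat-sensitive libraries was subtracted. The remainder had an SD over genes of 0.734 to 0.87 in heat-adapted columns, which wrongly matched rows would also raise. It was at most 0.00128 in heat-sensitive columns, by which the 104 genes were matched. None of the 8 genes was among them, and every value below is from the FPKM columns. The sources used here do not give which part of the table holds the heat-adapted libraries as labelled. Heat-sensitive replicate 2 stood apart in heat shock transcripts. The HSP70 gene HSPA2 was at 50.96 to 63.11 FPKM in heat-adapted libraries, and at 2889 FPKM in that library against 143 and 165 FPKM in the other heat-sensitive libraries. The epithelial surface gene EPCAM was at 2245, 2326 and 1965 FPKM in heat-adapted libraries and at 1610, 1830 and 2199.8 FPKM in heat-sensitive libraries. All 17 enterocyte markers with a row were detected, and the alkaline phosphatase gene ALPI was the lowest of them, at 0.76 to 1.28 FPKM over the 6 libraries.

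None of the 8 genes differed between the breeds past the threshold, an adjusted p below 0.05 from limma over 11587 genes whose FPKM averaged 1 or more. Across all tested genes 0.0949% passed. An unadjusted p below 0.05 was reached by OCLN alone, 1 of 8 genes, against 18.0% of all tested genes (7.13% higher and 10.9% lower in heat-adapted libraries). The groups overlapped in all 8 genes, while they did not overlap in 21.9% of all tested genes. The log2 difference (heat-adapted minus heat-sensitive, of log2(FPKM + 1)) was above 0 in 4 of 8 genes, against 41.7% of all tested genes. With FPKM rescaled to TPM, a fixed sum per library, it was above 0 in 7 of 8 genes, against 56.9% of all tested genes, and 7 of 8 against 52.2% with median-of-ratios scaling. TPM scaling also moved the genes with an unadjusted p below 0.05 to 11.6% higher and 6.05% lower. Before that scaling, FPKM summed to 805203, 779730 and 885074 in heat-adapted libraries. The sums were 898136, 894885 and 893271 in heat-sensitive libraries. On the FPKM scale the median log2 difference over the 8 genes was 0.02, and -0.06 over all tested genes. The standard errors lay between 0.16 and 0.23, and the 95% intervals of the 8 log2 differences all lay between -0.84 and 0.76.

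**Figure D1:**
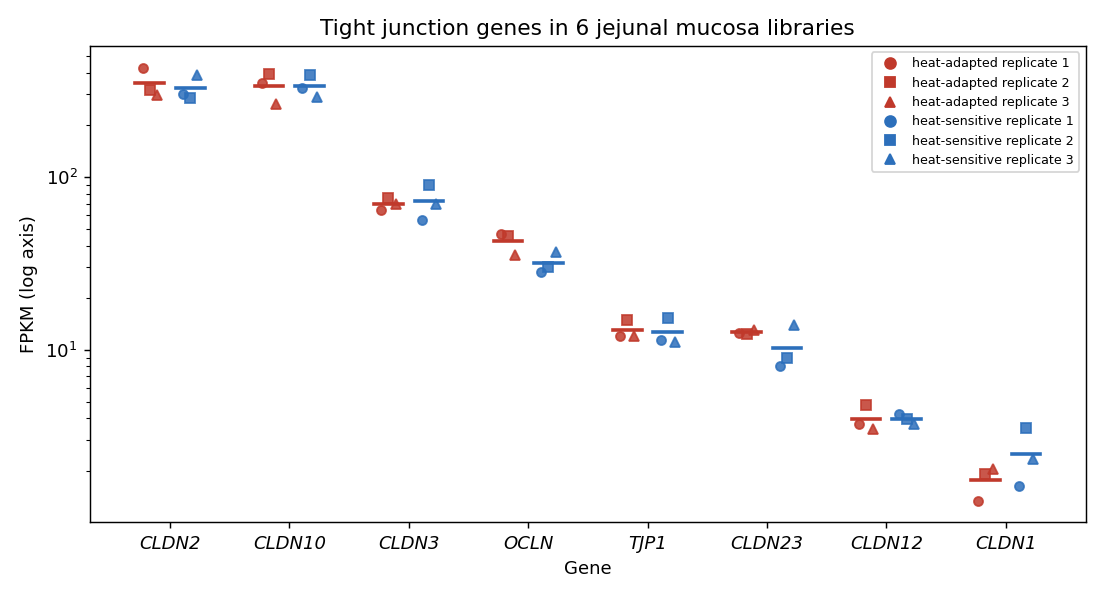
FPKM of 8 tight junction genes (log axis) in each library, heat-adapted at the left and heat-sensitive at the right of each gene, with a line at the group mean. CLDN2 and CLDN10 lie above 260 FPKM in every library and CLDN1 below 4 FPKM, and the points of both breeds overlap for every gene.

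The genes spanned a wide range of levels. Of the claudins that form channels in mammals, CLDN2, which lines a pore for small cations and water, had the highest mean over the 6 libraries, 336 FPKM. CLDN2 was at 428.24, 318.06 and 296.87 FPKM in heat-adapted libraries and at 301.77, 286.43 and 387.54 FPKM in heat-sensitive libraries. Heat-adapted replicate 1 held the highest CLDN2 value, and the other libraries of both breeds were interleaved. Its log2 difference was 0.09 (95% interval -0.35 to 0.53, limma adjusted p = 0.839). Without heat-adapted replicate 1 it was -0.07.

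CLDN10, whose isoforms in mammals form channels for either cations or anions, followed with a mean of 334 FPKM. It was at 348.68, 390.58 and 263.73 FPKM in heat-adapted libraries and at 325.53, 386.34 and 290.4 FPKM in heat-sensitive libraries. Both breeds covered nearly the same range, and the log2 difference of CLDN10 was -0.01 (95% interval -0.44 to 0.43, limma adjusted p = 0.99). CLDN2 exceeded CLDN10 in 3 of the 6 libraries, so the order of this pair is not settled by the data. CLDN12, linked to calcium passage together with CLDN2 in mammals, was far lower. It was at 3.72, 4.77 and 3.48 FPKM in heat-adapted libraries and at 4.27, 3.99 and 3.7 FPKM in heat-sensitive libraries. Both group means of CLDN12 were 3.99 FPKM, and the 95% interval of its log2 difference ran from -0.40 to 0.38.

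Of those claudins among the 8 genes that are known in mammals for closing the junction, CLDN3 was the most abundant, with a mean of 71 FPKM. CLDN3 was at 64.1, 75.51 and 70.02 FPKM in heat-adapted libraries and at 56.05, 90.17 and 69.88 FPKM in heat-sensitive libraries. The heat-sensitive libraries held both its lowest and its highest value. Its log2 difference was -0.02 (95% interval -0.43 to 0.39, limma adjusted p = 0.968). CLDN1, a sealing claudin that is abundant in skin, was the lowest of the 8 genes, with a mean of 2.12 FPKM. It was at 1.34, 1.9 and 2.05 FPKM in heat-adapted libraries and at 1.62, 3.51 and 2.33 FPKM in heat-sensitive libraries. The highest CLDN1 value was that of heat-sensitive replicate 2, the library with the high heat shock transcripts. The log2 difference of CLDN1 was -0.31 (95% interval -0.84 to 0.22, limma adjusted p = 0.512). It was -0.11 without that library, -0.19 without heat-adapted replicate 1 and -0.50 without heat-sensitive replicate 1. CLDN23, which in mice is found in differentiated gut epithelial cells, was at 12.5, 12.28 and 13.08 FPKM in heat-adapted libraries and at 8, 9 and 13.83 FPKM in heat-sensitive libraries. The heat-adapted values lay close together, and heat-sensitive replicate 3 was above all of them. Its log2 difference was 0.31 (95% interval -0.13 to 0.75, limma adjusted p = 0.433), and it was 0.16 with heat-sensitive replicate 1 left out or 0.52 with replicate 3 of that breed left out.

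OCLN averaged 42.3 ± 6.24 FPKM in the heat-adapted libraries, against 31.7 ± 4.33 FPKM in the heat-sensitive ones (SD, n = 3 each). It was at 46.41, 45.27 and 35.08 FPKM in heat-adapted libraries and at 28.26, 30.25 and 36.56 FPKM in heat-sensitive libraries. Heat-adapted replicates 1 and 2 lay above every heat-sensitive library, and heat-adapted replicate 3 lay below heat-sensitive replicate 3. The log2 difference was 0.40 (SE 0.16, 95% interval 0.04 to 0.76), and its limma p of 0.0339 became an adjusted p of 0.246 over all tested genes. It was above 0 in each fit without 1 library, from 0.33 to 0.53. TJP1 was at 12.04, 14.77 and 11.95 FPKM in heat-adapted libraries and at 11.41, 15.23 and 11.14 FPKM in heat-sensitive libraries. In both breeds replicate 2 was highest, and the log2 difference of TJP1 was 0.04 (95% interval -0.33 to 0.42, limma adjusted p = 0.922). In RefSeq's table for GRCg7b, another build than the authors' GRCg6a, TJP1 overlaps MPHOSPH10, which was at a like level, 10.7 to 14.63 FPKM over the 6 libraries. CLDN10 overlaps ABCC4 there, at 1.54 to 2.64 FPKM, and CLDN2 overlaps RIPPLY1, not analysed here. The sources used here do not give whether reads were counted by strand, so the reads of such pairs may be mixed.

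**Figure D2:**
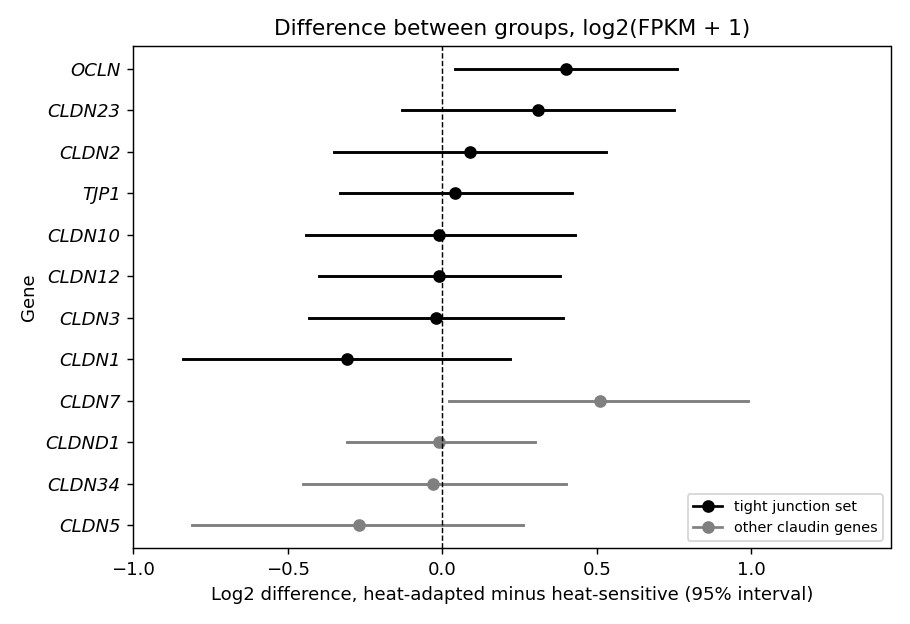
Difference in log2(FPKM + 1), heat-adapted minus heat-sensitive, for 8 tight junction genes (black) and 4 other claudin family genes (grey), with 95% intervals from limma. The intervals of OCLN (0.04 to 0.76) and CLDN7 (0.02 to 0.99) lie above 0, and neither gene passed after adjustment.

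By level the genes ran CLDN2, CLDN10, CLDN3, OCLN, TJP1, CLDN23, CLDN12 and CLDN1. The steps from CLDN10 to CLDN3 (4.71-fold by mean FPKM), from CLDN3 to OCLN (1.92-fold), from OCLN to TJP1 (2.9-fold) and from CLDN23 to CLDN12 (2.87-fold) separated the ranges over all 6 libraries. TJP1 exceeded CLDN23 in 3 of 6 libraries, and these neighbours were not separated. CLDN12 exceeded CLDN1 in all 6 libraries, although the ranges met across libraries. By mean FPKM CLDN2 stood above 97.2% of the tested genes, and CLDN1 above 9.5%.

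Of the 8 genes, heat-adapted replicate 1 was highest in CLDN2 and OCLN, heat-adapted replicate 2 in CLDN10 and CLDN12, heat-sensitive replicate 2 in CLDN1, CLDN3 and TJP1, and heat-sensitive replicate 3 in CLDN23. After taking out each breed's mean, the tested genes whose log2 profile over the 6 libraries was most like that of CLDN2 were CLRN3, LOC107048987 and PGM1, with Pearson's r of 0.996, 0.994 and 0.993. Those most like OCLN were RER1, P2RX1 and FAM3D, with r of 0.997, 0.996 and 0.996. These r rest on 6 libraries, and taking out the breed means leaves fewer free values than that. They were the highest of 11587 genes, and 67 genes for CLDN2 and 112 for OCLN exceeded 0.95, so they are descriptions.

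Other claudins fill out the picture. Of 16 further claudin family genes looked for, 10 had a row, 4 were tested and 0 passed limma, with 1, CLDN7, at an unadjusted p below 0.05. Such a p was reached by 18.0% of all tested genes, with 7.13% higher in heat-adapted libraries. CLDND1, 1 of the 4 tested, had a mean of 49.9 FPKM (log2 difference -0.01, limma adjusted p = 0.982). It was left out of the sums and shares below. Without it 15 claudins had a row. Their FPKM summed to 1088, 966 and 813 in heat-adapted libraries and to 802, 913 and 933 in heat-sensitive libraries. CLDN2, CLDN10, CLDN7 and CLDN3 made up 95.9% to 97.2% of that sum in heat-adapted libraries and 96.2% to 96.9% in heat-sensitive libraries. These shares do not depend on the scaling of a library. CLDN2 alone held 36.3% ± 3.23 in heat-adapted libraries, against 36.8% ± 5.13 in heat-sensitive ones (SD, n = 3 each). CLDN7, known in mammals from the sides of epithelial cells as well as the junction, was the claudin with the most unequal share among these 4. Its share was 19.8%, 15.4% and 18.4% in heat-adapted libraries and 11.7%, 12.9% and 16% in heat-sensitive libraries. Heat-sensitive replicate 3 overlapped the heat-adapted libraries. CLDN7 averaged 171 ± 38.5 FPKM in heat-adapted libraries, against 120 ± 27.9 FPKM in heat-sensitive ones, a log2 difference of 0.51 (SE 0.21, limma adjusted p = 0.261). Leaving out 1 library moved it to between 0.33, without heat-adapted replicate 1, and 0.68, without heat-sensitive replicate 3.

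**Figure D3:**
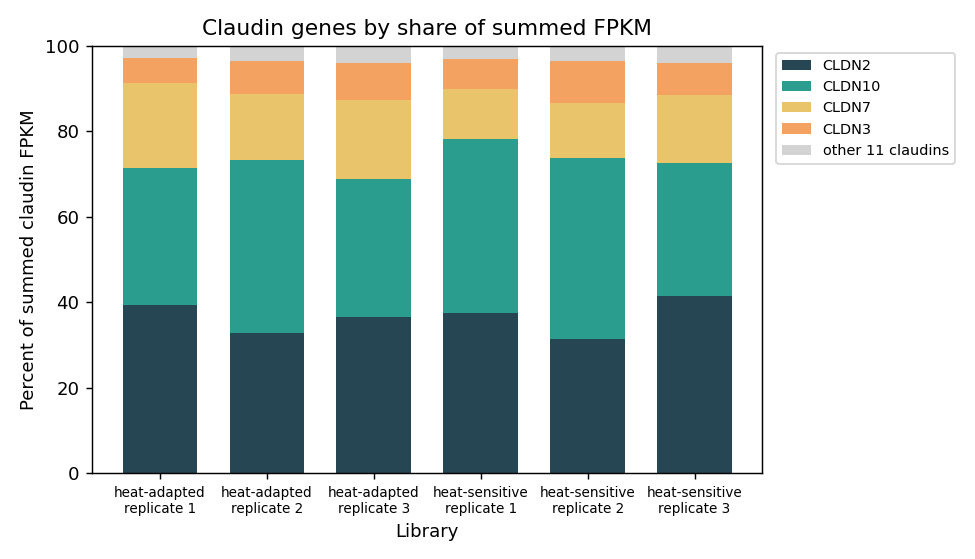
Share of the summed FPKM of 15 claudin genes (percent) in each of the 6 libraries. CLDN2 and CLDN10 fill most of every bar, and the CLDN7 share runs from 15.4% to 19.8% in heat-adapted libraries and from 11.7% to 16% in heat-sensitive libraries.

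CLDN5, a claudin of blood vessel walls, was at 1.53 ± 0.671 FPKM in heat-adapted libraries, against 2.02 ± 0.481 FPKM in heat-sensitive ones (SD, n = 3 each; limma adjusted p = 0.563). Its log2 difference of -0.27 became -0.13 with heat-adapted replicate 1 left out or -0.48 with replicate 2 of that breed left out. CLDN34, another claudin family gene, was at 11.4 ± 1.17 FPKM in heat-adapted and 11.8 ± 2.74 FPKM in heat-sensitive libraries. CLDN15, the main sodium channel claudin of the mammalian small intestine, was under the filter on low values and was not tested. It was listed at 0.14, 0.97 and 0.89 FPKM in heat-adapted libraries and at 0.13, 0.04 and 0 FPKM in heat-sensitive libraries. The heat-adapted values of CLDN15 were the higher ones throughout, by 0.01 FPKM at the nearest pair. CLDN8, CLDN16, CLDN20 and CLDN22 stayed below 1 FPKM in all 6 libraries.

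The other proteins of the junction were taken by role. Among 9 tested membrane proteins 0 passed limma, with 3 higher and 1 lower in heat-adapted libraries at an unadjusted p below 0.05. The shares of all tested genes were 7.13% higher and 10.9% lower. ILDR1, which recruits tricellulin to corners where cells meet, averaged 13.3 ± 0.681 FPKM in heat-adapted libraries, against 10.2 ± 0.661 FPKM in heat-sensitive ones (SD, n = 3 each), without overlap (log2 difference 0.35, limma adjusted p = 0.225). The adhesion receptor gene CXADR averaged 161 ± 35.2 FPKM in heat-adapted libraries, against 112 ± 20.3 FPKM in heat-sensitive ones (0.50, adjusted p = 0.245). JAM2, an adhesion molecule of vessels, averaged 7.05 ± 2.33 FPKM in heat-adapted libraries, against 14 ± 5.18 FPKM in heat-sensitive ones (-0.88, adjusted p = 0.208). The breeds overlapped in CXADR and in JAM2. The JAM2 difference ranged from -0.61 without heat-adapted replicate 1 to -1.18 without heat-sensitive replicate 3. Endothelial markers, CLDN5 and ESAM of the lists above among them, were below 0 in log2 difference in 11 of 11 tested genes. Their median was -0.35 (-0.22 without heat-sensitive replicate 2). Over all tested genes 41.7% were above 0, with a median of -0.06. The summed FPKM of the endothelial markers was 64.7 to 111 in heat-adapted and 98 to 185 in heat-sensitive libraries. None of the 12 markers was at 0 in every library, and their part in the JAM2 values was not tested. In tissue of mixed cells, fewer cells of a type and less RNA per cell cannot be told apart.

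Of 19 tested plaque and polarity genes 0 passed limma and 1, TJP3, had an unadjusted p below 0.05, with a median log2 difference of 0.08. The ZO-3 gene TJP3, a relative of TJP1, averaged 28.5 ± 8.66 FPKM in heat-adapted libraries, against 17.9 ± 3.61 FPKM in heat-sensitive ones (log2 difference 0.62, limma adjusted p = 0.22), with overlap, and the difference was 0.40 without heat-adapted replicate 3. YBX3, a DNA-binding protein that associates with ZO-1, averaged 64.6 ± 11.8 FPKM in heat-adapted libraries, against 82.4 ± 3.72 FPKM in heat-sensitive ones (-0.36, adjusted p = 0.281; -0.21 without heat-adapted replicate 1). LLGL2, a polarity protein of the basolateral side, averaged 42.3 ± 2.7 FPKM in heat-adapted libraries, against 34.6 ± 4.75 FPKM in heat-sensitive ones (0.29, adjusted p = 0.318). Over these plaque and polarity genes, the membrane proteins and the other claudins together, 6 of 32 tested genes, 18.8%, had an unadjusted p below 0.05, near the 18.0% of all tested genes.

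Regulators of the contractile ring beneath the junction had a median log2 difference of 0.00 over 15 tested genes. In limma 0 passed, with 1 higher and 2 lower in heat-adapted libraries at an unadjusted p below 0.05. Of all tested genes 7.13% were higher and 10.9% lower at such a p. MYLK, the kinase whose action on myosin opens the junction, averaged 8.51 ± 3.93 FPKM in heat-adapted libraries, against 20.9 ± 6.49 FPKM in heat-sensitive ones (SD, n = 3 each), a log2 difference of -1.25 (limma adjusted p = 0.162). Its target MYL9 averaged 89.5 ± 38.7 FPKM in heat-adapted libraries, against 192 ± 52.9 FPKM in heat-sensitive ones (-1.17, adjusted p = 0.196; -0.74 without heat-adapted replicate 1). Both genes are also strongly expressed in smooth muscle. In the same list the myosin light chain genes MYL12A and MYL12B had means of 418 and 238 FPKM. Their log2 differences were 0.00 and 0.09 (limma adjusted p = 0.997 and 0.766). The myosin heavy chain genes MYH9 and MYH10 of that list were at 0.43 and -0.47 (limma adjusted p = 0.296 and 0.384). Smooth muscle markers were below 0 in log2 difference in 12 of 12 tested genes, MYLK among them, with a median of -1.07 (-0.68 without heat-adapted replicate 1). Over all tested genes 41.7% were above 0, with a median of -0.06. The summed FPKM of the smooth muscle markers was 366 to 740 in heat-adapted and 788 to 1487 in heat-sensitive libraries. None of the 12 was at 0 in every library, and their part in the MYLK and MYL9 values was not tested. ARHGEF11, an activator of RhoA that binds ZO-1, averaged 16.2 ± 0.791 FPKM in heat-adapted libraries, against 12.9 ± 1.14 FPKM in heat-sensitive ones (0.31, adjusted p = 0.262).

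Among 13 tested transcription factors of the epithelium 0 passed limma, with 2 higher and 1 lower in heat-adapted libraries at an unadjusted p below 0.05. Over the 5 lists from the other claudins to these factors, 12 of 60 tested genes, 20%, had such a p. This is near the 18.0% of all tested genes. The groups did not overlap in 21.7% of the 60, near the 21.9% of all tested genes. GRHL3, of a family that activates junction genes, was at 1.52, 1.88 and 1.94 FPKM in heat-adapted libraries and at 4.19, 3.98 and 3.96 FPKM in heat-sensitive libraries. The breeds did not overlap in GRHL3, and its log2 difference of -0.86 (SE 0.17) had a limma p of 0.000553 and an adjusted p of 0.079. GRHL2, of the same family, had a mean of 4.77 FPKM and a log2 difference of -0.01 (limma adjusted p = 0.992). KLF4, a factor of differentiated epithelium, averaged 44.2 ± 7.18 FPKM in heat-adapted libraries, against 22.2 ± 10.9 FPKM in heat-sensitive ones (1.05, adjusted p = 0.152). HNF4A, a regulator of enterocyte identity, averaged 54.6 ± 3.93 FPKM in heat-adapted libraries, against 37.3 ± 6.68 FPKM in heat-sensitive ones (0.55, adjusted p = 0.153).

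**Figure D4:**
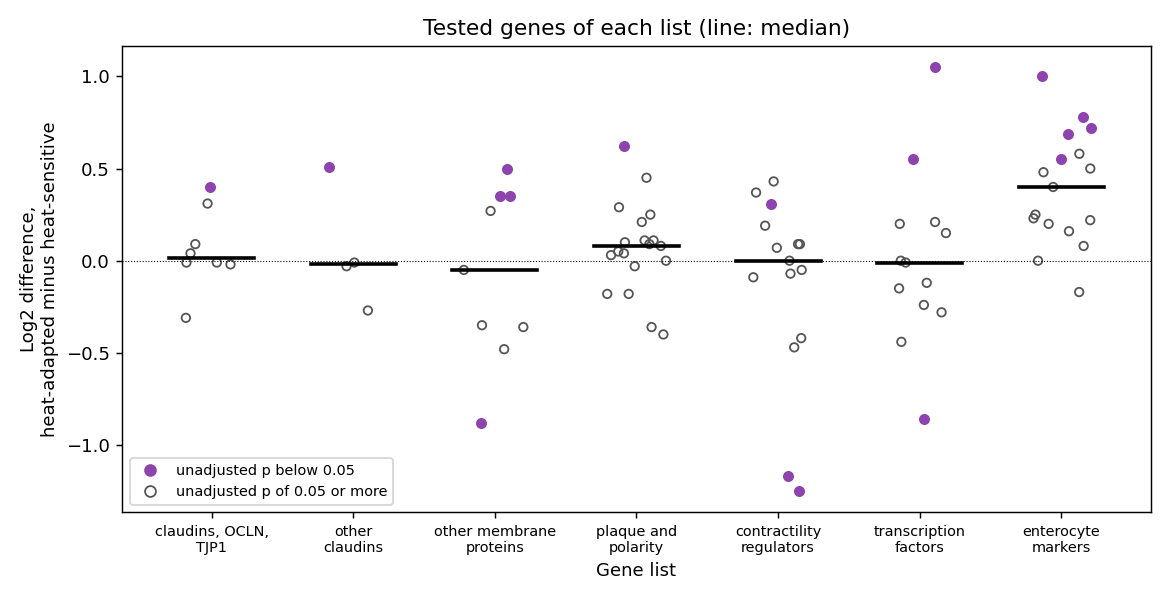
Log2 difference, heat-adapted minus heat-sensitive, of the tested genes of 7 lists, with a line at each list's median. Claudins, OCLN and TJP1 have a median of 0.02 and enterocyte markers a median of 0.40, and filled points mark an unadjusted limma p below 0.05.

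HNF4A, CDX1 and CDX2 were in both the transcription factor list above and the enterocyte list. Of 17 tested enterocyte markers, 15 had a log2 difference above 0, against 41.7% of all tested genes, with a median of 0.40. The median was 0.21 without heat-sensitive replicate 2. In limma 0 passed and 5 had an unadjusted p below 0.05, against 18.0% of all tested genes. Their summed FPKM was 36769 to 53840 in heat-adapted libraries, against 22544 to 45120 in heat-sensitive ones. Most of this sum came from APOA1, FABP1 and FABP2, with means of 14449, 12211 and 8382 FPKM over the 6 libraries. Some other marker lists ran the other way, with 0 past limma in each. Of B and plasma cell markers 9 of 9 were below 0 in log2 difference (median -0.71), of fibroblast markers 12 of 12 (-0.41, and -0.25 without heat-sensitive replicate 2) and of crypt and cycling cell markers 8 of 10 (-0.37, and -0.24 without that library). An unadjusted p below 0.05 was reached by 4, 3 and 5 of them in that order of lists. In the crypt and cycling list these were MKI67, TOP2A, CDK1, CCNB2 and PCNA. There LGR5 was at -0.09, SOX9 at -0.19, OLFM4 at -0.40, RGMB at 0.18 and EPHB2 at 0.24. Enteroendocrine markers were below 0 in 6 of 7 tested genes (median -0.48), and T and natural killer cell markers in 10 of 12 (-0.28). In each, 3 genes had an unadjusted p below 0.05. Goblet cell markers were above 0 in 4 of 7 tested genes (median 0.10), and macrophage markers in 3 of 7 (-0.18). When every library was scaled to the mean log2 level of the enterocyte markers, the log2 difference of OCLN was 0.01 and that of the median tested gene was -0.45. On that scale CLDN2 was at -0.30, TJP1 at -0.35, CLDN23 at -0.09 and CLDN1 at -0.70 (limma adjusted p = 0.129 for CLDN1). CLDN3 was at -0.41, and CLDN10 and CLDN12 were at -0.40. The difference was above 0 in 1 of 8 genes there, near the 8.6% of all tested genes, and none of the 8 genes passed. The part of enterocyte content in the OCLN values was not tested.

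Ratios within a library were computed for 8 pairs of genes, as the difference of log2(FPKM + 1) between the 2 genes. Through the added 1, ratios with the low gene CLDN1 depend on the scaling of a library. Those of the higher genes depend on it much less. The log2 ratio of OCLN to EPCAM was -5.57, -5.65 and -5.77 in heat-adapted libraries and -5.78, -5.87 and -5.87 in heat-sensitive libraries. The breeds did not overlap, by 0.01 at the nearest pair, and differed by 0.18 (exact permutation p = 0.1, 2-sided, the smallest p that 3 against 3 libraries allow; 0.4 after adjustment over 8 ratios). The log2 ratio of CLDN1 to CLDN3 was -4.80, -4.72 and -4.54 in heat-adapted libraries and -4.44, -4.34 and -4.41 in heat-sensitive libraries. With the added 1 these also did not overlap and differed by -0.29 (exact permutation p = 0.1, adjusted p = 0.4). On FPKM alone the breeds overlapped in this ratio. There heat-adapted replicate 3 (2.05 over 70.02 FPKM) lay above heat-sensitive replicate 1 (1.62 over 56.05 FPKM). The pore claudin CLDN2 over the sealing claudin CLDN3 averaged 2.28 ± 0.38 on the log2 scale in heat-adapted libraries, against 2.17 ± 0.45 in heat-sensitive ones (SD, n = 3 each), with overlap (exact permutation p = 0.8). OCLN over TJP1 averaged 1.63 ± 0.20 in heat-adapted libraries, against 1.27 ± 0.34 in heat-sensitive ones, with overlap (exact permutation p = 0.3), and the difference of 0.36 became 0.20 with heat-sensitive replicate 2 left out or 0.54 with replicate 3 of that breed left out. For 4 further ratios to EPCAM, of CLDN1, CLDN2, CLDN3 and TJP1, the differences lay between -0.53 and -0.13, with overlap in each. Without heat-sensitive replicate 2 those of CLDN1, CLDN3 and TJP1 were -0.31, -0.05 and -0.03. That of CLDN2 moved the other way, further below 0. In CLDN2 over EPCAM this library held the lowest heat-sensitive ratio, -2.67 against -2.41 and -2.50.

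**Figure D5:**
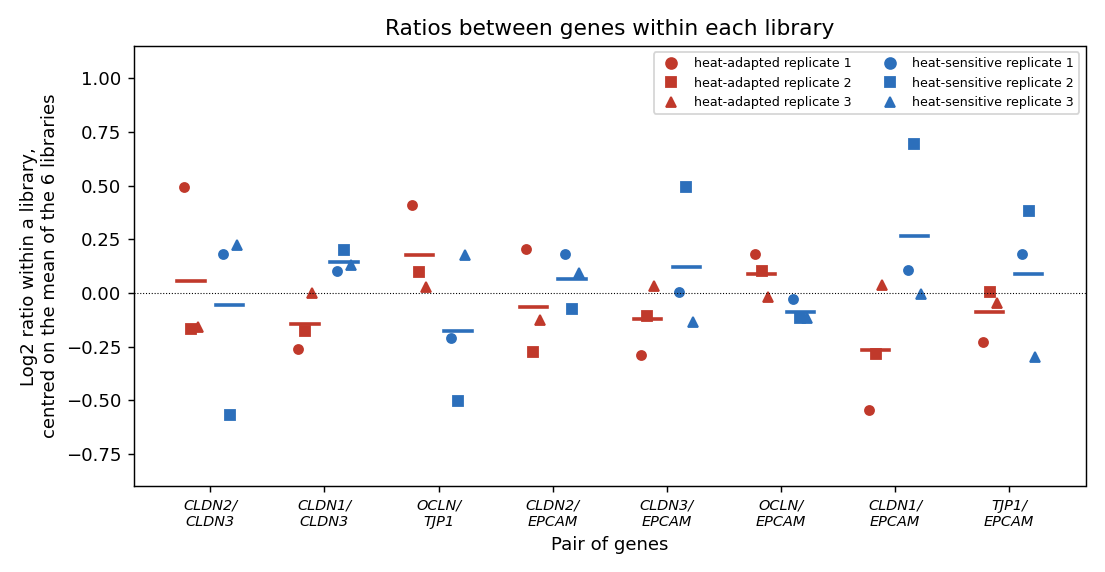
Log2 ratios between pairs of genes within each library, each centred on its mean over the 6 libraries, heat-adapted at the left and heat-sensitive at the right of each pair, with a line at the group mean. On this scale OCLN over EPCAM and CLDN1 over CLDN3 do not overlap between breeds, with differences of 0.18 and -0.29. On FPKM alone CLDN1 over CLDN3 overlaps.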

How the data were processed

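RNA-seq of jejunal mucosa was measured in 6 pooled libraries, 3 per breed. The submitters' processing notes name the build GRCg6a, HISAT2 (2.0.1), cutadapt (1.9.1), DESeq2 and HTSeq (0.6.1); the sources used here do not give order or settings. Per the file headers, the authors deposited FPKM values, rounded to 2 decimals, and read counts, which were taken as estimated counts because 13.2% to 13.7% of the values are not whole. Symbols and read counts are ordered differently: row by row, mean FPKM and mean count had a Spearman's rho of -0.0048, and 77 of 3575 rows that reached an FPKM of 20 in all 6 libraries had no reads in any. They served for library totals and for the search of count rows by profile only.

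Rows with a date in place of a symbol, 19 in all, were left out. Genes averaging an FPKM of 1 or more were tested with limma 3.58.1 (R 4.3.3) on log2(FPKM + 1) (trend, robust, no block), 2-sided, with Benjamini-Hochberg adjustment over all tested genes and a threshold of 0.05. This scale understates differences of low genes. The fit was tested on simulated data. Without molecular identifiers, values include PCR copies. Ratios were taken of FPKM + 1, with a 2-sided exact permutation test over libraries. Besides the 8 genes, the text names the 3 genes of smallest p in each junction list, EPCAM and the 3 genes most like CLDN2 and OCLN; any other gene was chosen after its values were seen. The genes and lists were chosen with earlier results of these data known. Alternatives covered pseudocounts of 0.1 and 0.5, filters, 4 other scalings, the spread estimate, the replicate block and leaving out each library.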

Additional observations from a re-analysis of the deposited data

How the results depend on the processing

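Of the 8 genes, 0 passed in the main fit and under each of 16 alternatives (CLDN1 and CLDN12 are under the filter at a mean FPKM of at least 5, which leaves 6 genes). The number with an unadjusted p below 0.05, 1 in the main fit, was 0 with the replicate number as a block and 0 to 2 when 1 library was left out (2 without heat-sensitive replicate 3; 0 without heat-adapted replicate 1 or 2 or heat-sensitive replicate 1 or 2). Scaled to enterocyte markers, the number was again 1, and the gene was CLDN1 (log2 difference -0.70) and not OCLN (0.01). Libraries share only a number: same-numbered libraries had correlations of deviations of -0.16, 0.11 and -0.19. Over all genes 11 passed; the number was 17 and 20 with pseudocounts of 0.1 and 0.5, 7 with no filter and 7 with a mean FPKM of at least 5, 38 with TPM, 20 with median-of-ratios scaling, 46 with the replicate block, and 6 to 64 when 1 library was left out, the extremes being without heat-adapted replicates 2 and 3. Unadjusted, 2086 genes were below 0.05, and 1130 to 2480 when 1 library was left out. In the 5 lists of other junction genes and regulators 0 passed, and 2 with the replicate block, MYLK (adjusted p = 0.0398) and MYL9 (0.0486).

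Some signs turned, all for differences of 0.31 or less in size in the main fit. With TPM and median-of-ratios scaling CLDN10 was at 0.11 and 0.07, CLDN3 at 0.10 and 0.06, CLDN12 at 0.10 and 0.06 and CLDN34 at 0.09 and 0.05; with quantile normalization CLDN12 was at 0.10 and CLDN34 at 0.03, and CLDN1 kept its sign at -0.15, and YBX3 at -0.24 with TPM. The median of crypt and cycling cell markers was -0.90 with a mean FPKM of at least 5. TPM moved the median of all tested genes from -0.06 to 0.05. Scaled to enterocyte markers CLDN2 was at -0.30, TJP1 at -0.35 and CLDN23 at -0.09. With 1 library left out, CLDN2 ranged from -0.07 to 0.22, CLDN10 from -0.13 to 0.15, CLDN3 from -0.18 to 0.15, TJP1 from -0.05 to 0.18, CLDN12 from -0.12 to 0.07, and CLDN2 over CLDN3 from -0.15 to 0.25; CLDN34 ranged from -0.21 to 0.11. OCLN stayed above 0 and CLDN1 below 0 in each fit. The endothelial median was also -0.22 without heat-adapted replicate 1, and that of fibroblast markers -0.64 without heat-sensitive replicate 3. The cause of these moves was not tested.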
